A study of Mus musculus with 2 samples.

Results

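The genes examined were 7 members of the MHC class II presentation pathway, namely Cd74, H2-Aa, H2-Ab1, H2-Eb1, H2-DMa, H2-DMb1 and Ciita. They were chosen by name for their known role and were all present among the 20198 genes of the count matrix. Each was counted in every deposited cluster of each library.

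MHC class II molecules carry peptides from endocytosed protein to the surface of dendritic cells, macrophages and B cells, where CD4+ T cells read them. H2-Aa and H2-Ab1 encode the alpha and beta chains of the I-A molecule, and H2-Eb1 encodes the beta chain of I-E. Cd74 encodes the invariant chain, which fills the peptide groove of new molecules until cathepsins cut it down to a short remnant. H2-DMa and H2-DMb1 encode the pair of chains of H2-DM, which exchanges that remnant for peptide, and Ciita is the transactivator that switches the class II genes on and is itself induced by interferon gamma in many cell types. In the healthy cornea, class II is known mainly from the few resident dendritic cells and macrophages.

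Corneas came from male mice aged 6 to 8 weeks, either uninjured (UW, 4 mice) or taken 24 h after an epithelial wound (W, 4 mice); the strain is not given in the sources used here. The mice of each group were pooled into a single 3′ tag library, so neither condition had a replicate and no test between them was possible. UW held 16450 cells with a median of 22014 unique molecular identifiers (UMIs, each standing for 1 captured transcript) and W held 12417 cells with a median of 20290. Values are given as CPM, the UMIs of a gene scaled to 1000000 UMIs of all genes, summed over the cells of a cluster, or as the share of cells with at least 1 UMI, and the 95% intervals in square brackets cover counting error only. A tag library gives a single tag per molecule whatever the gene's length, so CPM values of different genes were set side by side without length scaling, although capture may differ between genes.

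Clusters are those of the deposited cell annotation and leukocyte and stromal names were given only where marker lists allowed them. Cluster 13 was neutrophil-like, cluster 15 macrophage-like, cluster 16 T-like and cluster 0 stroma-like. In cluster 16 the natural killer list scored 3.98 and the T cell list 3.90, the former on 1 of its genes with 20 or more counts and the latter on 5. Cluster 10 was led by Myoc, Penk and Fmod, and 10 clusters (1 to 9 and 11) were grouped as epithelial. The corneal epithelium list was the highest-scoring list in clusters 2, 4, 5 and 8 of these, was not the highest in the others, and scored -0.35 in cluster 7. Cluster 14 was led by Cd74, H2-Eb1, H2-Aa, H2-Ab1, C1qa and Lyz2 and scored highest on the conventional dendritic cell list (3.37), but also on the lists of plasmacytoid dendritic cells (2.21), migratory dendritic cells (2.13) and macrophages (2.05), so it was given no single name. Cluster 15 scored higher on the macrophage list, at 2.52. Because the class II genes helped to form cluster 14, their height in it is a description and not a finding. Of the barcodes, 52 were present in both libraries, and 4 cells with such a barcode lay in clusters 14 and 15.

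After wounding, class II transcripts were concentrated in few cells. The 4 classical genes (Cd74, H2-Aa, H2-Ab1 and H2-Eb1) gave 113472 UMIs in W, or 392 CPM over the whole library, and 1381 UMIs in UW, or 3.76 CPM. Cluster 14 was 2.85% of the W cells and held 75.4% of these UMIs. Cluster 15 was 2.02% of the W cells and held 16.2%, while the epithelial clusters were 68.5% of the cells and held 6.41%. UW had only 7 cells in cluster 14, with a median of 1087 UMIs per cell, and none in cluster 15. These 7 cells carried 28 UMIs of Cd74, 8 of H2-Aa, 8 of H2-Ab1 and 13 of H2-Eb1 and none of H2-DMa, H2-DMb1 or Ciita, too few to compare this cluster between conditions. In pooled libraries, fewer cells of a type and weaker recovery of those cells during dissociation cannot be told apart.

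**Figure D1:**
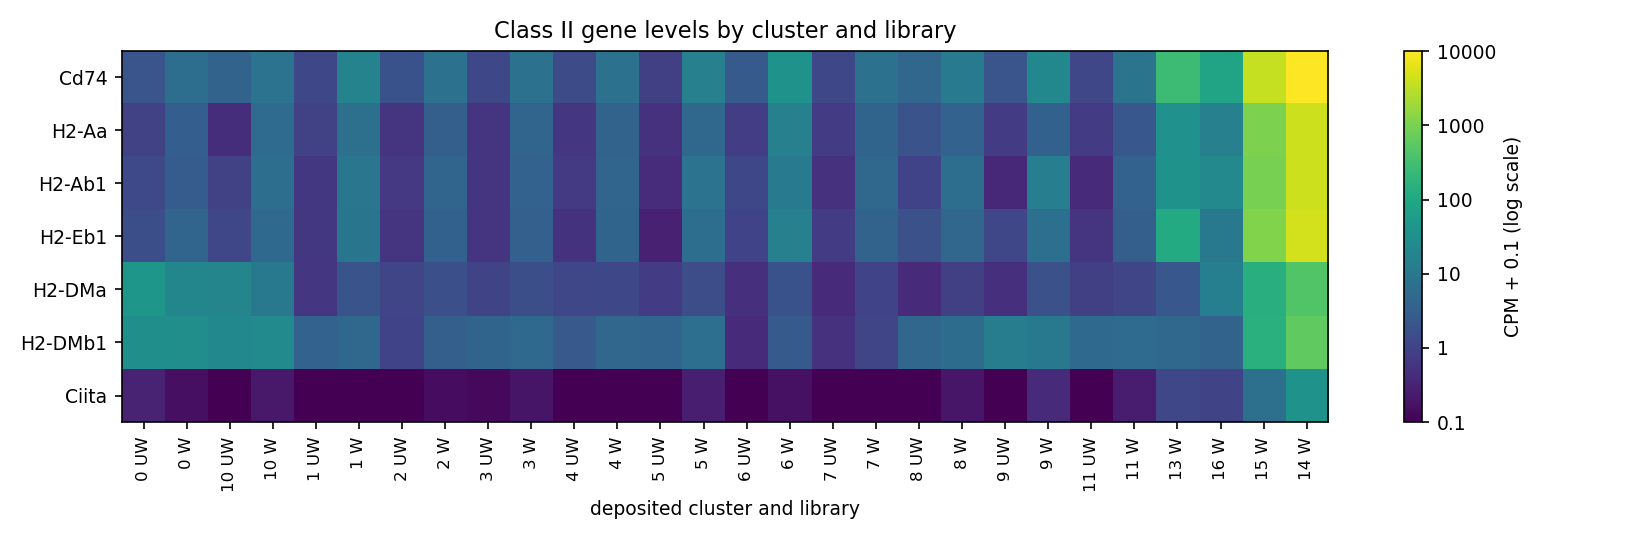
Map of the level of each of the 7 genes (rows) by deposited cluster and library (columns), coloured by CPM + 0.1 on a log scale. Each cell of the map is 1 summed library. UW cells of clusters 13, 14 and 16 (at most 7 cells each) and cluster 17 are not drawn. Of the columns drawn, clusters 15 and 14 of the wounded library (W), at the right, are the brightest for Cd74, H2-Aa, H2-Ab1 and H2-Eb1, with Cd74 at 3613 and 10161 CPM.

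The invariant chain Cd74 was the most abundant of the 7 genes in cluster 14 of W, at 10161 CPM [10059, 10265], with a UMI in 80.2% of its 354 cells. H2-Eb1 followed at 4644 CPM [4575, 4714], then H2-Aa at 4219 CPM [4153, 4285] and H2-Ab1 at 4200 CPM [4134, 4267]. The intervals of H2-Aa and H2-Ab1, the alpha and beta chains of the same molecule, overlapped, and the count of H2-Ab1 per UMI of H2-Aa was 0.996 [0.974, 1.02]. The chains of the peptide exchanger were about an order of magnitude lower, H2-DMb1 at 609 CPM [585, 635] and H2-DMa at 438 CPM [417, 460]. The regulator Ciita was the lowest at 36.4 CPM [30.5, 43.1] with a UMI in 20.9% of cells, and 134 of the 188 Ciita UMIs of the W library (71.3%) were in cluster 14.

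Outside clusters 14 and 15 the W levels of Cd74 were ordered as follows. Unnamed cluster 17, of only 29 cells, had 467 CPM [411, 529], with 166 of its 249 UMIs in a single cell, neutrophil-like cluster 13 had 273 CPM [250, 298], and T-like cluster 16 had 85.6 CPM [68.8, 105]. Among the epithelial clusters the highest were cluster 6 at 35.3 CPM [32.4, 38.5], where a single cell held 329 of the 526 UMIs and without which it was at 13.3 CPM, and cluster 9 at 22.1 CPM [20.2, 24.0]. Clusters 1 and 5 were next at 17.1 and 15.1 CPM with overlapping intervals, but 171 of the 246 UMIs of cluster 1 were in a single cell, without which it was at 5.23 CPM. Leaving out the cell of most class II UMIs, an alternative added after seeing the data, also took cluster 17 to 163 CPM and cluster 16 to 59.9 CPM, and cluster 9 was then the highest epithelial cluster at 21 CPM. The other epithelial clusters ranged from 7.18 CPM in cluster 3 to 11.9 CPM in cluster 8, and stroma-like cluster 0 had 6.23 CPM [5.40, 7.15]. The order was not the same for every member: H2-DMa and H2-DMb1 were higher in cluster 0, at 19.5 and 30 CPM, than in any epithelial cluster or in cluster 13, while the interval of H2-DMa in cluster 16, 14.4 CPM [8.08, 23.8], overlapped that of cluster 0.

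Cluster 14 was uneven from cell to cell. The summed UMIs of the 4 classical genes were 0 in 52 of its 354 cells and 500 or more in 85, with a median of 45.5 and a maximum of 1610. Macrophage-like cluster 15 was narrower, with a median of 18.0, a maximum of 576 and 5 of 251 cells at 500 or more. At least 200 UMIs were carried by 39.5% of the cells of cluster 14 and 13.1% of cluster 15, at median depths of 8724 and 10144 UMIs per cell. Neutrophil-like cluster 13 had no cell of 50 or more among 710, at the lower median depth of 2510 UMIs. Within cluster 14 the 4 classical genes went together from cell to cell, with Pearson r of log2(UMIs per 10000 + 1) between 0.92 and 0.97 over 354 cells, which share a library and differ in depth. H2-DMa and H2-DMb1 followed them at r of 0.77 to 0.84 and the sparsely counted Ciita at 0.41 to 0.43. Of the 74 cells of cluster 14 with a Ciita UMI, 73 also had an H2-Ab1 UMI, against 163 of the other 280 cells (58.2%).

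**Figure D2:**
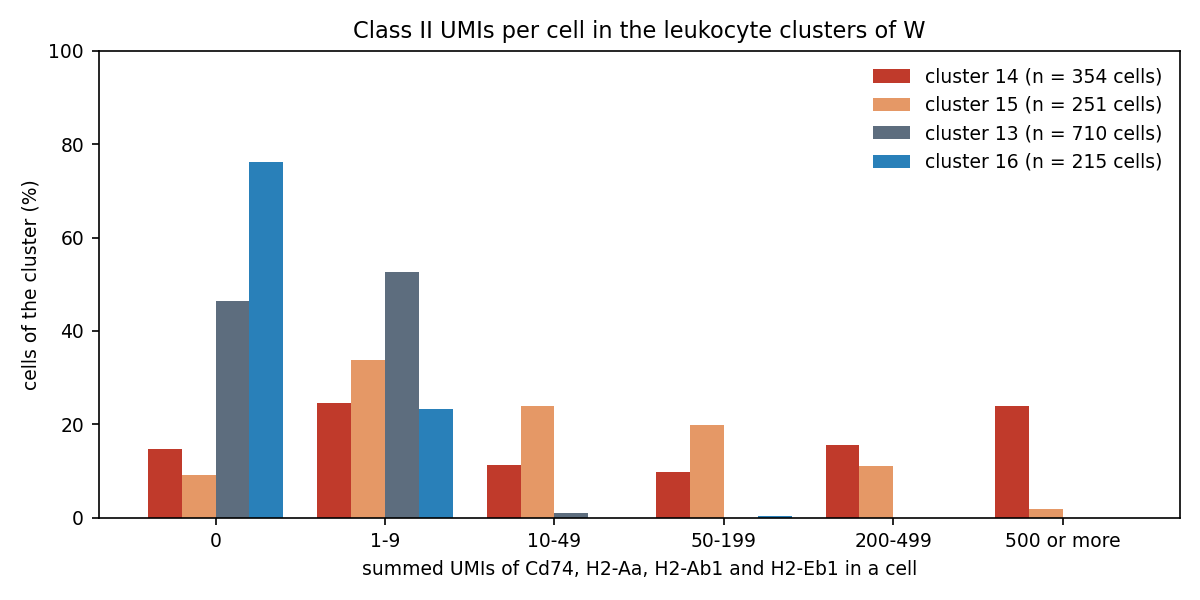
Cells of W clusters 13, 14, 15 and 16 by their summed UMIs of Cd74, H2-Aa, H2-Ab1 and H2-Eb1, as percent of each cluster's cells. Cluster 14 has cells in every class from 0 to 500 or more UMIs, whereas clusters 13 and 16 lie almost entirely under 10.

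Cells of cluster 14 were then grouped by single markers of known phagocyte kinds, counting a cell as positive at 2 or more UMIs. The groups overlap, the marker genes were among those clustered, and the single-gene grouping was added after seeing the data, so the values are descriptive. The 13 cells positive for Cd207, the langerin gene of Langerhans cells and some dendritic cells, had 57715 CPM of the 4 genes together. The whole Langerhans list, whose other genes include Epcam of epithelium, gave 126 cells with 20739 CPM, below the 26601 CPM of the cells under 2 UMIs of it. The 31 cells positive for Cd209a, a lectin of monocyte-related dendritic cells, had 49199 CPM, and the 26 cells positive for Ccr7, the homing receptor that takes mature dendritic cells to lymph nodes, had 36308 CPM. The 57 cells positive by the list of conventional dendritic cell genes had 38420 CPM, with quartiles over cells of 31676 and 50728, while the 18 cells positive for Flt3, the receptor on which dendritic cells depend, had 29336 CPM and the migratory dendritic list 30669 CPM. C1qa, a complement gene of tissue macrophages, marked 117 cells with 33665 CPM and wider quartiles of 3195 and 52007. Other macrophage markers gave 21907 CPM for Mrc1, 20821 for Adgre1 and 19154 for Fcgr1, and the whole macrophage list gave 23763, so dendritic and macrophage markers overlapped in level.

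Of the single marker genes, the lowest level went with Arg1, an arginase gene known from wound macrophages. Arg1 is no marker of macrophages alone in these data, since over both libraries it was at 493 CPM in epithelial cluster 6 and 370 in cluster 7, against 250 in cluster 14 and 1333 in cluster 15. In cluster 14 the 73 Arg1-positive cells had 3895 CPM of the 4 genes and 0.862 CPM of Ciita, and the 281 cells with fewer than 2 Arg1 UMIs had 32098 and 52.7 CPM. The median cell was at 160 CPM with Arg1 and at 24044 CPM without. Cluster 15 had the same order, with 2679 CPM in 153 Arg1-positive cells and 13473 CPM in the other 98. Ly6c2, a gene of inflammatory monocytes, marked 60 cells of cluster 14 with 13961 CPM but a median cell of 2175 CPM, so a minority of these cells held most of the UMIs. Only 1 cell of cluster 14 was positive both for Arg1 and for the dendritic list. Cluster 14 also held epithelial keratin transcripts, Krt12 at 6048 CPM with a UMI in 100% of cells and Krt14 at 3748 CPM. So did W clusters 13, 15 and 16, with Krt12 in 100% of cells at 3584, 1247 and 2106 CPM. Krt14 was at 4119, 1304 and 2359 CPM in them. The part of keratin transcripts in the class II levels was not tested.

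**Figure D3:**
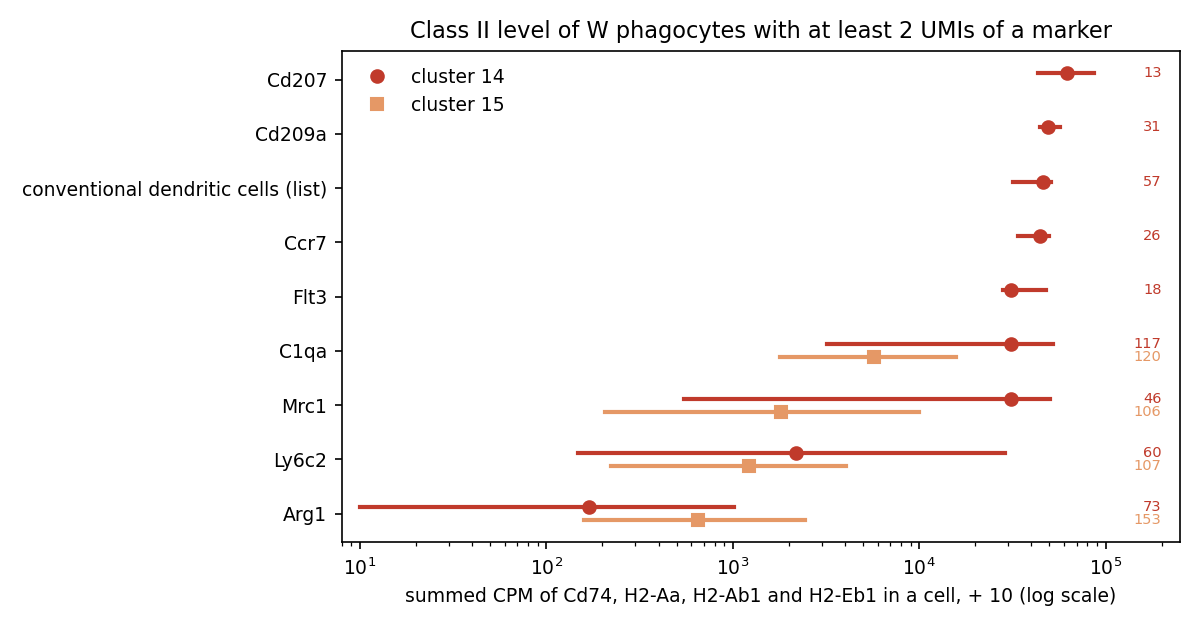
Summed CPM of Cd74, H2-Aa, H2-Ab1 and H2-Eb1 in single cells of W clusters 14 and 15 with 2 or more UMIs of a marker, plotted as CPM + 10 on a log axis. Points are medians over cells, lines run between the quartiles, the number of cells stands at the right, and groups of fewer than 5 cells are not drawn. Arg1-positive cells have the lowest median of the markers shown in both clusters, 160 CPM in cluster 14 and 645 CPM in cluster 15.

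All 7 genes were at least 2-fold lower in cluster 15 than in cluster 14 of W, where 12.8% of the 10275 genes with 20 or more counts were that much lower. The difference was smallest for Cd74 and largest for Ciita. Cd74 was at 3613 CPM in cluster 15, 2.81-fold lower, and H2-Aa, H2-Ab1 and H2-Eb1 were at 1059, 958 and 1150 CPM, 3.98-, 4.38- and 4.04-fold lower. H2-DMa at 137 CPM and H2-DMb1 at 149 CPM were 3.21- and 4.09-fold lower, and Ciita at 7.01 CPM was 5.19-fold lower on 19 UMIs. The proportions within the pathway also shifted, with 3.41 Cd74 UMIs per H2-Aa UMI [3.27, 3.56] in cluster 15 and 2.41 [2.36, 2.45] in cluster 14. The cells of both clusters came from 1 library, so these intervals hold for that library and not for the condition.

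The other genes of the pathway did not go the same way. Of 30 listed pathway genes, 27 were in the table and 23 had 20 or more counts in this comparison. In cluster 15, 4 of the 23 were at least 2-fold lower, a share near the 12.8% of all genes, among them both chains of H2-DO, the inhibitor of H2-DM that marks dendritic cells and B cells. H2-Oa had 29.6 CPM in cluster 14 and no UMI in cluster 15, at least 26.7-fold lower taking 3 counts for the 0, and H2-Ob had 13 and 0.369 CPM. H2-DMb2, a near-identical copy of H2-DMb1, had 42.1 and 1.48 CPM, and Ccr7 had 115 CPM and no UMI. At least 2-fold higher in cluster 15 were 3 of the 23, all lysosomal proteases, where 4.96% of all genes were that much higher. They were Ctsl at 2876 against 1156 CPM, Ctsb at 2113 against 702 CPM and Lgmn at 1274 against 458 CPM. Ctss, the cathepsin that makes the last cut of the invariant chain in dendritic cells, was less far apart at 1554 and 1148 CPM. The class I genes H2-K1, H2-D1 and B2m were 1914, 1984 and 3240 CPM in cluster 15 and 1372, 1313 and 1903 CPM in cluster 14, so the lower values of cluster 15 did not extend to class I. Ifng, the inducer of Ciita, had 124 UMIs in T-like cluster 16, or 119 CPM, and none in clusters 14 and 15.

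Neutrophils and T cells of the mouse are not known for class II of their own, and clusters 13 and 16 show the level found in such cells of the same library. In cluster 13 a UMI of H2-Aa was present in 7.46% of cells and of H2-Ab1 in 8.31%, at a median of 2510 UMIs per cell. In cluster 16 the shares were 4.19% and 5.58% at a median of 4411. H2-Eb1 stood apart in cluster 13, with 115 CPM [100, 132] against 34.3 CPM [26.4, 43.9] of H2-Aa. This was 3.35 H2-Eb1 UMIs per H2-Aa UMI [2.52, 4.51], and the same ratio was 1.10 [1.08, 1.13] in cluster 14 and 1.09 in cluster 15. Cd74 had 7.95 UMIs per H2-Aa UMI [6.11, 10.5] in cluster 13, with overlapping intervals in cluster 16 at 5.56 [3.24, 10.2] and cluster 9 at 6.46 [5.13, 8.22]. Cells of clusters 14 and 15 with fewer than 20 class II UMIs, as all cells of cluster 13 have, gave 5.15 [3.95, 6.81] and 27.1 [16.9, 46] for Cd74. For H2-Eb1 they gave 0.955 [0.665, 1.37] and 1.5 [0.796, 2.89], and the part of free RNA was not tested.

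Over all epithelial clusters, the classical genes were higher in W than in UW, least for H2-Aa and most for H2-Ab1. Cd74 had 1.55 CPM in UW and 13.4 in W, a log2 ratio of 3.12 [2.98, 3.25]. H2-Aa went from 0.652 to 4.59 CPM (2.82), H2-Eb1 from 0.595 to 5.49 CPM (3.21) and H2-Ab1 from 0.598 to 6.90 CPM (3.53). Ciita had 1 UMI in 13501 UW cells and 26 UMIs in 8507 W cells, a ratio of 36.2 with a log2 interval of 2.57 to 10.5. The median log2 ratio of all genes compared was 0.22 by CPM and 0.01 with TMM scaling. By CPM, 6 of the 7 genes were at least 2-fold higher, and so were 21.8% of the 16439 genes compared. The sixth, H2-DMb1, went from 2.56 to 5.37 CPM (1.07) and was at 0.86 with TMM. This value pools clusters whose shares of cells differed between the libraries. Cluster 9, at 12.3 CPM in UW, had 521 UW and 956 W cells, and cluster 6, at 0.322 CPM, had 1533 and 652. The part of this mix in the pooled ratio was not tested. In clusters 1, 3, 8, 9 and 11 the interval of H2-DMb1 did not exclude equal levels, and in the other epithelial clusters it did. By cluster the log2 ratio of H2-DMb1 ran from -0.26 in cluster 9 to 1.77 in cluster 2 and 2.95 in cluster 6, the last on 14 and 37 UMIs. A single cell held 16 of the 37, and without it the ratio in cluster 6 was 2.14 (added after seeing the data). H2-Ab1 UMIs per H2-Aa UMI over all epithelial clusters were 0.917 [0.753, 1.12] in UW and 1.5 [1.39, 1.62] in W. Without clusters 5, 8 and 9 they were 0.989 [0.798, 1.22] and 1.05 [0.947, 1.17]. H2-DMa was not 2-fold apart, with 0.688 and 1.29 CPM (0.91).

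Leukocyte transcripts moved with this difference. A UMI of any of 6 leukocyte genes (Ptprc, Tyrobp, Fcer1g, Lyz2, Laptm5 and Coro1a) was found in 2.86% of the UW epithelial cells and in 43.5% of those of W. S100a8, a gene that neutrophils express very highly, was found in 0.955% and 52.6%. In cells without a UMI of the 6 genes the log2 ratio of the 4 classical genes was 3.41, and 3.16 in all epithelial cells. S100a8 is not among the 6, so cells with other leukocyte RNA were kept, and the part of free RNA was not tested. Few cells also carried much of the signal. Outside the leukocyte clusters, 19 of the 10858 W cells had 20 or more class II UMIs and held 24.3% of the 8000 there, and 15 of the 19 had a leukocyte UMI. In UW 7 of 16435 such cells held 30.1% of 1324 UMIs, all 7 with a leukocyte UMI. Krt12, a corneal keratin, was present in all of these cells, but also in 100% of the cells of W clusters 13 and 16, so it does not set them apart. Without them the epithelial log2 ratio was 3.28, an alternative added after seeing the data. Of the other pathway genes 3 of 19 were at least 2-fold higher in W, a smaller share than the 21.8% of all genes, namely Rfxap, a subunit of the RFX complex that binds class II promoters, at 12.3 and 36.8 CPM, and the sparse Cd86 and Lag3, and none was that much lower, where 8.77% of all genes were.

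Epithelial cluster 9, led by Wfdc18 and Sox4, had the most uneven pair of I-A chains among the W clusters with 20 or more UMIs of both genes together. H2-Ab1 had 346 UMIs in W, 13.9 CPM [12.5, 15.4], and was present in 24.8% of the 956 cells. Its partner chain H2-Aa had 85 UMIs, 3.41 CPM [2.73, 4.22], and was present in 7.53%. H2-Ab1 was thus the higher by 4.07 UMIs to 1 [3.2, 5.22], where cluster 14 had an even ratio. Clusters 5, 8 and 11 lay between, at 1.72 [1.41, 2.10], 1.78 [1.47, 2.15] and 1.64 [1.11, 2.44]. The other epithelial clusters ran from 0.782 [0.639, 0.957] in cluster 6 to 1.32 [0.969, 1.82] in cluster 2. In cluster 6 a single cell held 141 of the 225 H2-Aa UMIs, and without it the ratio was 1.08 [0.796, 1.48] (added after seeing the data). H2-Eb1 in cluster 9 was at 6.51 CPM, or 1.91 UMIs per H2-Aa UMI. In UW, H2-Ab1 had 2 UMIs in the 521 cells of cluster 9, 0.263 CPM, so W was 52.9-fold higher with a log2 interval of 3.86 to 8.78. In cluster 9, 5 of 6 members with enough counts were at least 2-fold higher in W, where 9.12% of all genes were.

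The H2-Ab1 excess of cluster 9 was 4.23 to 1 in cells without a UMI of the 6 leukocyte genes and 4.44 to 1 in cells with fewer than 20 class II UMIs (added after seeing the data). A UMI of the 6 genes was found in 38.1% of its W cells and one of S100a8 in 52.9%, and the part of free RNA was not tested. The share with H2-Ab1 was 5.58% in T-like cluster 16, but the median depths were 24009 and 4411 UMIs per cell. With each cell thinned to 2000 UMIs, 2.20% of cluster 9 and 2.93% of cluster 16 had H2-Ab1, and 0.524% and 2.44% had H2-Aa. By CPM H2-Ab1 was also not higher in cluster 9 than in cluster 16, at 23.1 CPM [14.8, 34.4], but 13 of the 24 UMIs of cluster 16 were in a single cell, without which it was at 10.6 CPM [5.3, 19], an interval that holds the 13.4 CPM of cluster 9 without its own highest cell. Neither the share nor the CPM of H2-Ab1 thus set cluster 9 apart from cluster 16. The ratio to H2-Aa over all cells of cluster 16 was 1.5 [0.764, 3.02], an interval just under that of cluster 9. Without the highest cell of each cluster the ratios were 1.38 [0.504, 3.94] and 4.34 [3.38, 5.63], and the intervals overlapped. The UMIs were spread thinly, since 7.43% of the cells had 2 or more of H2-Ab1. Of the 237 cells with H2-Ab1, 11.8% had H2-Aa and 40.9% had Cd74, and the shares in the other cells of the cluster were 6.12% and 22.0%. Ciita had 8 UMIs in W cluster 9, 6 in cluster 5 and 5 in cluster 8, out of 26 in all epithelial clusters.

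**Figure D4:**
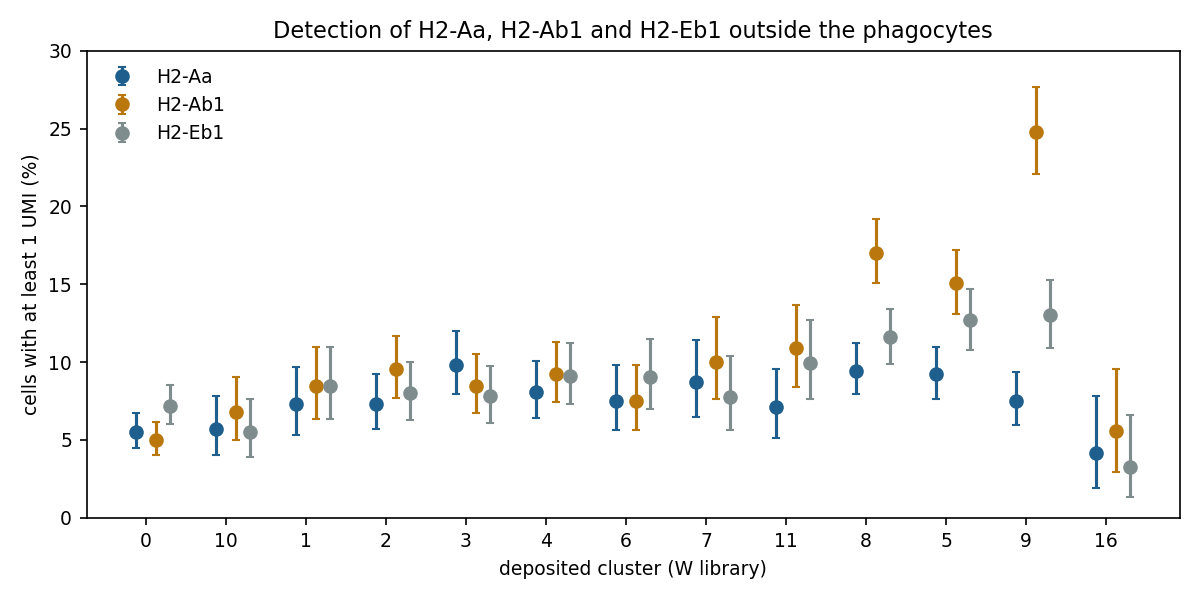
Share of cells with at least 1 UMI of H2-Aa, H2-Ab1 or H2-Eb1 by deposited cluster of the W library outside clusters 13, 14, 15 and 17, with exact 95% binomial intervals (counting error only). In cluster 9 H2-Ab1 is at 24.8% and H2-Aa at 7.53%, in clusters 8 and 5 they are 17% against 9.46% and 15.1% against 9.24%, and in the other clusters the intervals overlap.

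The H2-DM genes had a distribution of their own. In stroma-like cluster 0 of UW, H2-DMa was at 44.5 CPM [42.1, 47.0] with a UMI in 37.7% of 2369 cells, although Cd74 was at 2 CPM and H2-Ab1 at 1.20 CPM. Of the cells with H2-DMa there, 1.57% had a Cd74 UMI. After wounding H2-DMa was at 19.5 CPM [18.0, 21.1] in 28.9% of 1719 cells, a log2 ratio of -1.19 [-1.33, -1.05]. The ratio was -1.04 with TMM, and with cells thinned to 2000 UMIs the share was 8.99% in UW and 4.07% in W. H2-DMb1, the other chain, hardly differed at 31.2 and 30 CPM, a log2 ratio of -0.06 [-0.19, 0.08] that was 0.09 with TMM. H2-DMb1 UMIs per H2-DMa UMI were therefore 0.702 in UW and 1.54 in W.

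In cluster 10 H2-DMa was also lower in W but by less than 2-fold, at 18.7 CPM in UW and 10.5 in W (log2 ratio -0.84). H2-DMb1 was at 21.9 and 24.0 CPM. In the epithelial clusters the beta chain was the more abundant, with 3.72 H2-DMb1 UMIs per H2-DMa UMI [3.22, 4.33] in UW and 4.15 [3.66, 4.72] in W. In UW the ratio was 31.3 [10.4, 155] in cluster 9, on 3 UMIs of H2-DMa, and 14.2 [5.27, 54.1] in cluster 8. In W it was 6.4 and 7.15 in these clusters. It was 0.824 to 1.42 in clusters 6 and 7 of both libraries and 0.918 in UW cluster 2. Reads of H2-DMb1 and its copy H2-DMb2 can be confused, and H2-DMb2 in cluster 0 had 77 UMIs in UW and 24 in W. H2-DMa lies over genes annotated on the opposite strand, and the strand setting of the counting is not given in the sources used here. Ciita had 6 UMIs in UW cluster 0 and 2 in W.

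**Figure D5:**
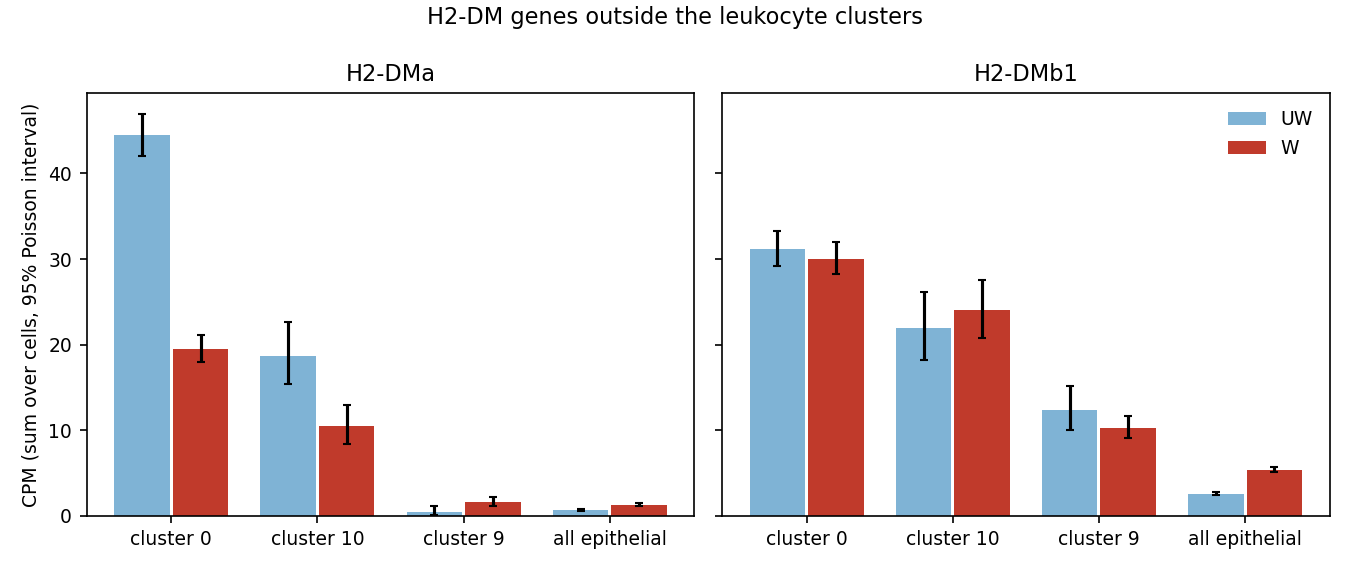
Levels of H2-DMa (left) and H2-DMb1 (right) in CPM in clusters 0, 10 and 9 and in all epithelial clusters, as bars for UW and W with 95% Poisson intervals (counting error only). In stroma-like cluster 0 H2-DMa is at 44.5 CPM in UW and 19.5 in W, while H2-DMb1 is at 31.2 and 30.

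The classical genes in cluster 0 were instead higher in W, from levels of at most 2 CPM. Cd74 had 2 CPM in UW and 6.23 in W, H2-Aa 0.879 and 3.05, H2-Ab1 1.20 and 2.71, and H2-Eb1 1.51 and 4.13. These were 4 of the 6 members with enough counts at least 2-fold higher, where 7.34% of all genes were, and H2-DMa was the 1 of 6 that was lower, where 9.67% were. A leukocyte UMI was found in 12.7% of UW cells of this cluster and 40.2% of W cells, and a UMI of Lyz2, 1 of the 6 genes, in 11% and 28.7%. In cells without a UMI of the 6 genes the log2 ratio of the 4 classical genes was 1.94, against 1.53 in all cells. Of the other pathway genes, 5 of 18 were at least 2-fold higher in W, among them Ifngr1, a chain of the interferon gamma receptor, at 52.7 and 182 CPM. Irf1, a transcription factor induced by interferon, had 41.9 and 93.6 CPM. In the epithelial clusters Irf1 was instead lower in W, at 179 and 109 CPM, while Ifngr1 was at 90.5 and 172 CPM. The 4 of 18 that were lower in cluster 0 were H2-DMb2, Nfya, Lag3 and Cd40, the costimulatory receptor, at 102 and 44.0 CPM. In cluster 10 the same 4 classical genes were at least 2-fold higher, where 4.97% of all genes were, on 2 to 22 UMIs each in UW. A leukocyte UMI was found there in 12.2% of UW cells and 34.2% of W cells. In cells without one the log2 ratio of Cd74 was 0.59, against 1.06 in all cells, and no longer 2-fold, while H2-Aa, H2-Ab1 and H2-Eb1 were at 3.33, 2.37 and 2.20. Without cells of 20 or more class II UMIs Cd74 was at 0.73.

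The members other than Cd74 and Ciita lie within the class II region of chromosome 17. In GRCm38 with GENCODE M21 positions, H2-DMa spans chr17:34119541-34139101, H2-DMb1 chr17:34153072-34160230, H2-Ab1 chr17:34257689-34269419, H2-Aa chr17:34282744-34287823 on the minus strand and H2-Eb1 chr17:34305867-34316674. Ciita spans chr16:10480059-10528418. Class II promoters are known for a short array of boxes, an X box bound by the RFX complex and a Y box bound by NF-Y, through which CIITA acts. The promoters of H2-Aa and H2-Eb1, which had 15546 and 17114 UMIs in cluster 14, are shown 5′ to 3′ in the direction of transcription from RefSeq on GRCm38.p6, with matches to CTNGNAAC and TGATTGG in capitals.
H2-Aa, chr17:34287847-34287927, minus strand: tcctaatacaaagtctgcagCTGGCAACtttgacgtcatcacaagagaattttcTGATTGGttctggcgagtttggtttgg
H2-Eb1, chr17:34305753-34305832, plus strand: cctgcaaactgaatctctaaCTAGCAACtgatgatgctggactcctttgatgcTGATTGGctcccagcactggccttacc

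The matches lay 26 bases apart in H2-Aa and 25 in H2-Eb1, and H2-DMb1 held the same pair 26 bases apart. In the windows of the 2 H2-DMa entries neither was found. Those windows and that of H2-DMb1 start within the gene spans given above, in H2-DMa far past the first base. Promoter entries matched 4 of the 7 members. The letters were picked after comparing these sequences. The windows of the members were searched only in the direction of transcription, so no match says only that these letters are not there in that direction. For the shares over all promoters both strands were searched. Of 32851 promoters, 10.9% held the first motif in the 250 bases before the start, 7.23% the second, and 27 (0.0822%) held the first before the second on 1 strand with 5 to 40 bases between.

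The genes whose level across clusters was most like the mean of the members were sought over 28 combinations of cluster and library with at least 50 cells. Among 6217 genes reaching 50 CPM, the highest Pearson r of log2(CPM + 10) were those of Pkib (0.985), Gatm (0.973), Cd83 (0.969), Cxcl13 (0.969), BC028528 (0.968), Cd86 (0.967), Rassf4 (0.966), Cybb (0.964), Ly86 (0.961) and C1qa (0.961). Cd83 and Cd86 are surface proteins of activated dendritic cells, and Cd86 is on the pathway list. These r rest largely on clusters 14 and 15, without which they were 0.567 to 0.816, and the points share libraries and free RNA. The ranking depended on the scale, since 2 of the 10 remained among the first 10 with log2(CPM + 1) and 0 with rank correlation.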

How the data were processed

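Single-cell RNA-seq was made from 1 pooled library per condition with a Chromium 3′ kit, v3 per the labels and another version in the study's methods. The authors aligned reads with Cell Ranger 3.1.0, filtered cells and clustered them with Seurat. The deposited matrix holds UMI counts per gene and cell and was used as deposited. The submitters' processing notes name mm9, and the study's methods name a different mouse build. The matrix holds fewer cells than the study states after filtering, and the reason is not given in the sources used here. Clusters were taken from the deposited annotation, and its 469 first-run doublet calls were removed only as an alternative.

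Counts were summed per cluster and library and divided by summed UMIs. Intervals were 95% exact Poisson for CPM, exact Clopper-Pearson for shares and exact conditional binomial for ratios, and cover counting error only. Where a sum was 0, 3 counts were used as a bound. With 1 library per condition no p-value or spread was computed. Genes with 20 or more counts over both sums were compared, at a threshold of 2-fold. Thinning drew 2000 UMIs per cell. Scaling alternatives used edgeR 4.0.16 (TMM) and DESeq2 1.42.0 size factors. A stricter filter kept cells with at least 1000 genes and at most 5% mitochondrial counts, leaving out 2195 cells. Ratio and interval code was tested on simulated data. Named genes were the 7 members, pathway and marker genes with 20 or more counts, and the 10 genes most like the members. Members and lists were chosen with earlier results of these data known. Work was done in Python 3.11.15 and R 4.3.3.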

Additional observations from a re-analysis of the deposited data

Results flagged for a closer look

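The W to UW difference of H2-DMa had opposite directions in 2 compartments, with counting intervals away from 0 in both. Its log2 ratio was -1.19 in stroma-like cluster 0, from 44.5 to 19.5 CPM, and 0.91 in the epithelial clusters, from 0.688 to 1.29 CPM. After thinning to 2000 UMIs, 0.164% of 13404 UW and 0.153% of 8485 W epithelial cells were positive, too few to show or exclude a direction. Without cells of 20 or more class II UMIs the epithelial value was 0.73 (added after seeing the data), and 16 and 12 of the 309 W UMIs were in single cells of clusters 1 and 6. By CPM the signs of H2-DMb1 also differed, at -0.06 [-0.19, 0.08] and 1.07, and those of Ciita, which had 6 and 2 UMIs in cluster 0. The 1.07 pools epithelial clusters in differing shares, with -0.26 in cluster 9 and 1.77 in cluster 2. With 1 library per condition the difference between the compartments was not tested.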

How the results depend on the processing

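Across 323 alternative values, 252 moved by less than the counting error or by less than 1.5 times for counts of genes and 71 moved further. Of values at least 2-fold apart, 0 changed direction, but H2-DMb1 in cluster 0, not 2-fold apart at -0.06, was 0.09 with TMM and 0.10 with DESeq2 size factors. For the summed classical genes in epithelial clusters the log2 ratio of 3.16 was 2.96 with TMM, 2.95 with DESeq2 size factors, 3.33 without first-run doublets, 3.41 without cells with a leukocyte UMI and 3.28 without cells of 20 or more class II UMIs (added after seeing the data). H2-DMb1 there was 1.07 by CPM and 0.86 with TMM, under the 2-fold threshold. H2-DMa in cluster 0 was -1.04 and -1.03 with the same scalings, against -1.19. Cluster 15 against 14 was -1.82 for the summed classical genes with the stricter cell filter, against -1.78. The share of W cluster 9 cells with H2-Ab1, 24.8%, was 2.20% in thinned cells and 7.43% at 2 or more UMIs. The level in cells positive by the dendritic list over clusters 14 to 17, 32159 CPM, was 37393 at 4 or more UMIs and 32694 with the stricter filter. Counts of genes at least 2-fold apart followed the filter on counts. The main count is given first, then that at a minimum of 100 counts. A further value, where given, is that with at least 1 count in each group. Cluster 9 higher was 1128 and 748, cluster 0 higher 1045 and 587, and cluster 0 lower 1378 and 867. Cluster 10 higher was 618, 310 and 1079, cluster 15 lower 1317, 508 and 2102, and cluster 15 higher 510, 277 and 1043. No paired analysis was possible because each condition is 1 library, and for the same reason no replicate could be left out. Depth limits Ciita most, with 188 UMIs in the whole W library.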
